A study of Mus musculus with 4 samples.

Results

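The expression of 9 transcription factor genes of the ureter mesenchyme was followed: the T-box genes Tbx18, Tbx2 and Tbx3, the teashirt genes Tshz1, Tshz2 and Tshz3, the forkhead gene Foxf1 and the GATA genes Gata2 and Gata6. The genes were chosen by symbol, with earlier results of these data known. All 9 were found among the 19296 genes of the array table, each through its single probe set with 1 gene symbol.

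RNA came from the ureter of 4 male mice of a 129Sv/C57BL6 mix, with 1 whole-transcript array per mouse. The 2 knockout mice were miR-143/145-/-, 2.5 months old and hydronephrotic, which means that the kidney was swollen by retained urine. The 2 wild type mice were miR-143/145+/+, 4.5 months old and had normal kidneys. Genotype, age and kidney state changed together and cannot be told apart, and the 2 mice of each are labelled as biological replicates. The deleted cluster encodes a pair of microRNAs that are abundant in smooth muscle.

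The ureter mesenchyme is the embryonic sheath around the ureteric epithelium from which the smooth muscle and the outer fibrous coat of the ureter arise. In the mouse embryo, hedgehog and Wnt signals from the epithelium, and bone morphogenetic protein 4 made by the mesenchyme itself, act through these transcription factors to start the smooth muscle program led by the coactivator myocardin. Tbx18 marks the prospective ureter mesenchyme and is needed for it to form around the epithelium, and loss of several of these factors in mice delays or blocks smooth muscle and widens the ureter.

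The values are log2 expression values made by the authors with RMA, which brings the arrays to a common distribution and so shrinks any shift common to most genes. Mir145a was at 4.60 and 5.02 on the log2 scale in knockout ureter, against 8.28 and 8.42 in wild type ureter. Mir143 was at 6.48 and 6.53 in knockout ureter, against 7.64 and 7.85 in wild type ureter. All 4 knockout values lay under the background level of log2 6.58, taken from olfactory receptor genes, so Mir145a was at least 3.42-fold lower and Mir143 at least 2.24-fold lower (limma, adjusted p = 0.00193 and 0.0148). All 14 urothelium markers, all 13 smooth muscle genes and 9 of 9 tested adipocyte markers lay above background on every array, while 0 of 9 markers of male accessory glands did on any. Kidney markers were uneven between the mice of both genotypes. Of 10 tested, 9 and 8 lay above background in knockout replicates 1 and 2 and 5 and 7 in wild type replicates 1 and 2, with mean log2 values of 8.35 and 6.76 in knockout and 6.57 and 7.27 in wild type. Knockout replicate 1 was highest. Kap and Slc34a1 were at 11.42 and 10.62 in it and at 7.81 and 7.33 in knockout replicate 2. They were at 6.19 and 7.33 in wild type replicate 1 and at 9.25 and 8.65 in wild type replicate 2. In limma 0 of these markers passed. With p unadjusted at 0.05, Cubn was higher and Nphs1, a gene of glomerular podocytes and not of tubules, was lower. Results without knockout replicate 1 are given below.

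In knockout ureter, 1 of the 9 factors, Tbx18, rose past the threshold of an adjusted p of 0.05 over all genes, and 0 fell. Of all genes 1.90% passed as higher and 0.477% as lower, 2.38% in all. The differences of the other 8 were positive and did not pass, with adjusted p between 0.0517 for Tshz3 and 0.506 for Tshz1. Both knockout mice lay above both wild type mice for all 9 factors, as they did for 28.0% of all genes, and below both for 0, against 32.0% of all genes. At an unadjusted limma p under 0.05, 7 factors were higher, beside 12.7% of all genes. The median difference of the 9 factors was log2 0.71, against -0.02 over all genes. Every factor lay well above background on all 4 arrays, the lowest value being 9.0 for Tshz1 in wild type replicate 1. In whole ureter, a change in the number of cells of a type and a change in RNA per cell cannot be told apart.

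**Figure D1:**
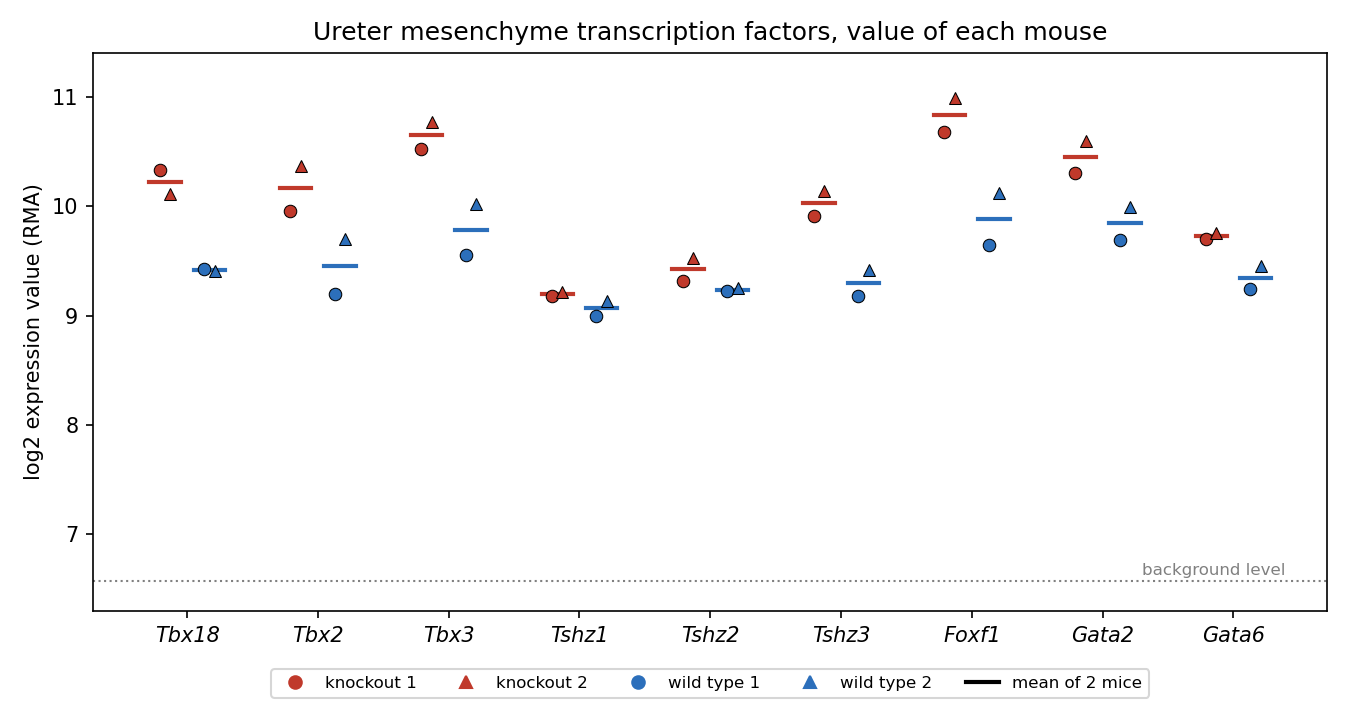
Each column is a factor, with the log2 expression value of the 2 knockout mice at left (red) and the 2 wild type mice at right (blue), circles for replicate 1, triangles for replicate 2 and bars for the means. The knockout points lie above the wild type points in every column and closest to them for Tshz1 and Tshz2; levels of different genes come from different probes and are not comparable.

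Tbx18 was measured at log2 10.33 and 10.11 in knockout ureter, against 9.43 and 9.41 in wild type ureter. The wild type mice were nearly level, and the lower knockout mouse stood 0.68 above the higher wild type mouse. Tbx18 averaged 10.22 ± 0.16 in knockout ureter and 9.42 ± 0.01 in wild type ureter (SD, n = 2 each). It rose 1.74-fold in knockout, a log2 difference of 0.80 (SE 0.13, 95% interval 0.50 to 1.10; limma, adjusted p = 0.0368, n = 2 each). The call did not survive another round of quantile normalization (limma, adjusted p = 0.0532), nor leaving out wild type replicate 1 (0.183) or wild type replicate 2 (0.216).

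Tbx2 and Tbx3 encode closely related repressors that act redundantly in the ureter mesenchyme downstream of Wnt signals. Tbx3 was at log2 10.53 and 10.77 in knockout ureter, against 9.55 and 10.02 in wild type ureter. Its difference of 0.86 (SE 0.18, 95% interval 0.44 to 1.29) was a little larger than that of Tbx18, but the wild type mice lay 0.47 apart and it did not pass (limma, adjusted p = 0.0566). For Tbx2 the values were 9.96 and 10.37 in knockout ureter and 9.20 and 9.70 in wild type ureter. Here the gap between the genotypes, 0.25, was smaller than the 0.41 between the knockout mice and the 0.50 between the wild type mice. The difference of Tbx2 was 0.71 (95% interval 0.22 to 1.20; limma, adjusted p = 0.0959).

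Foxf1 encodes a forkhead factor that responds to hedgehog signals in the ureter mesenchyme and is needed there for Bmp4 expression. It was at log2 10.68 and 10.99 in knockout ureter, against 9.64 and 10.12 in wild type ureter. Of the 9 factors Foxf1 had the largest difference, 0.95 (SE 0.19, 95% interval 0.51 to 1.40), or 1.94-fold, and it did not pass (limma, adjusted p = 0.0529).

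The teashirt genes encode zinc finger factors, of which Tshz3 is needed for ureter smooth muscle in mice and its protein binds SOX9 and myocardin. Tshz3 was at log2 9.91 and 10.14 in knockout ureter, against 9.18 and 9.41 in wild type ureter, with 0.50 between the nearest mice of the genotypes. Its difference was 0.73 (SE 0.14, 95% interval 0.40 to 1.06), which just missed the threshold (limma, adjusted p = 0.0517). Tshz2 was at 9.32 and 9.52 in knockout ureter and 9.22 and 9.25 in wild type ureter, a difference of 0.19 (95% interval -0.11 to 0.48; limma, adjusted p = 0.371). Tshz1 was at 9.18 and 9.22 in knockout ureter and 9.0 and 9.14 in wild type ureter, a difference of 0.13 (95% interval -0.15 to 0.41; limma, adjusted p = 0.506). The nearest mice of the genotypes were 0.07 apart for Tshz2 and 0.04 apart for Tshz1, and both intervals include 0. The differences of the 3 teashirt genes were not tested against each other.

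Gata2 and Gata6 encode zinc finger activators, and loss of either in the mouse ureter mesenchyme impairs smooth muscle differentiation. Gata2 is also known from endothelium and mast cells, and Gata6 from mesothelium and peritoneal macrophages. Gata2 was at log2 10.31 and 10.59 in knockout ureter, against 9.69 and 10.00 in wild type ureter, a difference of 0.61 (95% interval 0.23 to 0.98; limma, adjusted p = 0.0804). The mice of each genotype were about as far apart as the genotypes at their nearest, 0.31. Gata6 was at 9.70 and 9.76 in knockout ureter and 9.24 and 9.45 in wild type ureter, a difference of 0.38 (95% interval 0.09 to 0.68; limma, adjusted p = 0.118). Markers of those cell types did not pass in either direction, and their part in the values of Gata2 and Gata6 was not tested. Differences were negative for all 8 mast cell markers (median -0.30) and 9 of 12 endothelial markers (median -0.12). They were also negative for 7 of 8 macrophage markers (median -0.18) and 4 of 6 mesothelium markers (median -0.19). Of all 19296 genes, 10210 had negative differences. The 2 positive mesothelium markers were Upk3b (0.57), the brightest of the 6, and Gpm6a (0.42). The mast cell markers Ms4a2 and Fcer1a and the mesothelium marker Bnc1 lay under background on all 4 arrays.

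**Figure D2:**
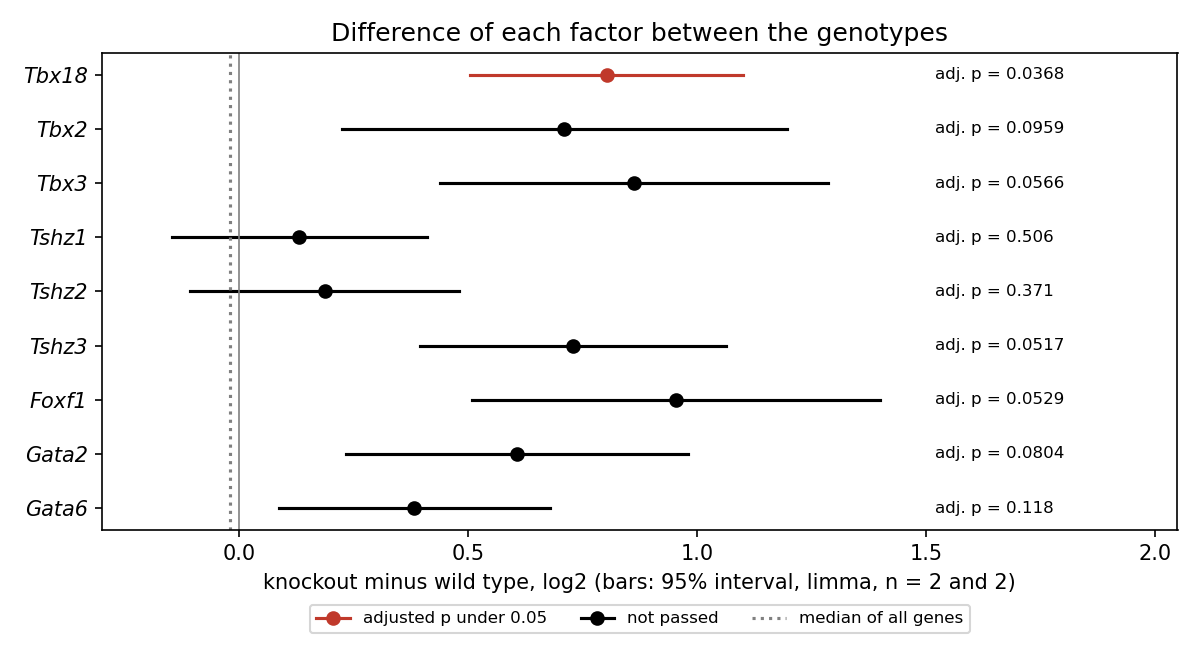
The knockout minus wild type difference of each factor on the log2 scale is drawn with its 95% interval from limma (n = 2 each) and its adjusted p, and the dotted line is the median of all genes. Tbx18 is the factor past the threshold (red), and the intervals of Tshz1 and Tshz2 include 0.

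In the table of RefSeq promoters (GRCm38.p6) used here, 4 of the 9 factors were matched by gene ID, Tbx18, Tshz2, Tshz3 and Gata2. The 250 bases upstream of the start are printed for Tbx18, the factor that passed, and for Tshz3 and Tshz2, a pair of relatives with a larger and a smaller difference. They are at chr9:87731261-87731510 on the minus strand (Tbx18), chr7:36697868-36698117 on the plus strand (Tshz3) and chr2:169632259-169632508 on the plus strand (Tshz2), written 5′ to 3′ along the gene with each CpG in capitals.
Tbx18: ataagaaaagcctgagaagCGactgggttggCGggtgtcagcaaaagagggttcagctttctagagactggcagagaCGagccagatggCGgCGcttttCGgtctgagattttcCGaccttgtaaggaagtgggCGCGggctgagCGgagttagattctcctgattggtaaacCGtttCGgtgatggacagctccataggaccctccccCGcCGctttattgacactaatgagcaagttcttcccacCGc
Tshz3: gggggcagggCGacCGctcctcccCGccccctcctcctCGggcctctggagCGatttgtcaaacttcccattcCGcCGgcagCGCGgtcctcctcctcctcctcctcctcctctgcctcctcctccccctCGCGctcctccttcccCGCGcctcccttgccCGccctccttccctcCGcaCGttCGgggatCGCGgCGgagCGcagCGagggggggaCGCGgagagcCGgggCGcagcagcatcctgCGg
Tshz2: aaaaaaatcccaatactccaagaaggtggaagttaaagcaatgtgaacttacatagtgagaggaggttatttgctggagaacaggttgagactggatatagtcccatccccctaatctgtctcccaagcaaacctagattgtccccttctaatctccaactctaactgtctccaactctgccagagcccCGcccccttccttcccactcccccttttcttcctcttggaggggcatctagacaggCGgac
These windows held 15 CpG in Tbx18, 27 in Tshz3 and 2 in Tshz2, against a median of 6 over 32851 promoter windows of the same length. The GC content was 54.0%, 74.0% and 48.8% in the same order, with a median of 52.4% over all windows. The windows of Gata2, not printed, held 22 and 24 CpG at a GC content of 67.2% and 74.0%. A relation of CpG count to the differences was not tested. Both strands were searched for motifs of the families described here, namely the T-box motif GGTGTGA, the forkhead motif GTAAACA and the GLI motif GACCACCCA of hedgehog signalling. The GATA motif was searched as AGATAA or as AGATAG, and with T for its first letter as TGATAA or as TGATAG. The CArG box, bound by serum response factor, and the general promoter motifs CCAAT and TATAAA were searched as well. CCAAT, on either strand, was matched 87 bases upstream of the start of Tbx18, 241 bases upstream in Tshz2, and 83 and 45 bases upstream of the second start of Gata2, which has a pair of starts. The other motifs had 0 matches in the 5 windows of the 4 matched factors. Over all windows the T-box motif was found in 3.33%, the forkhead motif in 3.17%, a GATA motif in 26.5%, the GLI motif in 0.225%, the CArG box in 1.47%, CCAAT in 33.8% and TATAAA in 12.4%.

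The factors also differed in how the mice of 1 genotype compared. The replicate numbers do not pair mice across genotypes, so an order shared by both genotypes is a description only. For 8 of the 9 factors, replicate 2 read higher than replicate 1 in both genotypes, an order seen in 30.4% of the 14227 genes above background. Tbx18 showed the opposite order, found in 22.7% of those genes, with 0.22 between the knockout mice but only 0.02 between the wild type mice. As the wild type mice were nearly level, the order of Tbx18 rests on the knockout mice. The urothelium markers had the order of the 8 factors in 14 of 14 cases, with mean log2 values of 11.74 and 12.11 in knockout and 11.19 and 11.48 in wild type replicates 1 and 2. All 14 had positive differences (median 0.61). Of them 1 rose past the threshold, beside 1.90% of all genes. It was the basal cell gene Trp63, which rose 1.78-fold (limma, adjusted p = 0.0486). Trp63 no longer passed without knockout replicate 2, with centred arrays, with all probe sets fitted or after another quantile normalization. The 13 smooth muscle genes followed the order of Tbx18 in 9 cases and that of the 8 factors in 0, with mean values of 11.62 and 11.46 in knockout and 11.37 and 11.28 in wild type replicates 1 and 2. Fibroblast markers followed the 8 factors in 7 of 10 cases. Their means were 11.30 and 11.45 in knockout and 10.76 and 10.82 in wild type replicates 1 and 2. Of these 10 markers 3 passed as higher, beside 1.90% of all genes. The 9 adipocyte markers all had negative differences and 0 passed, with means of 12.49 and 12.01 in knockout and 12.80 and 12.70 in wild type replicates 1 and 2. These orders were not particular to the lists above. The order of Tbx18 was also that of 5 of 9 adipocyte and 5 of 8 mast cell markers. In these lists 0 and 1 markers had the order of the 8 factors. All 6 mesothelium markers had the order of the 8 factors. The part of cell composition in the differences of the factors was not tested.

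**Figure D3:**
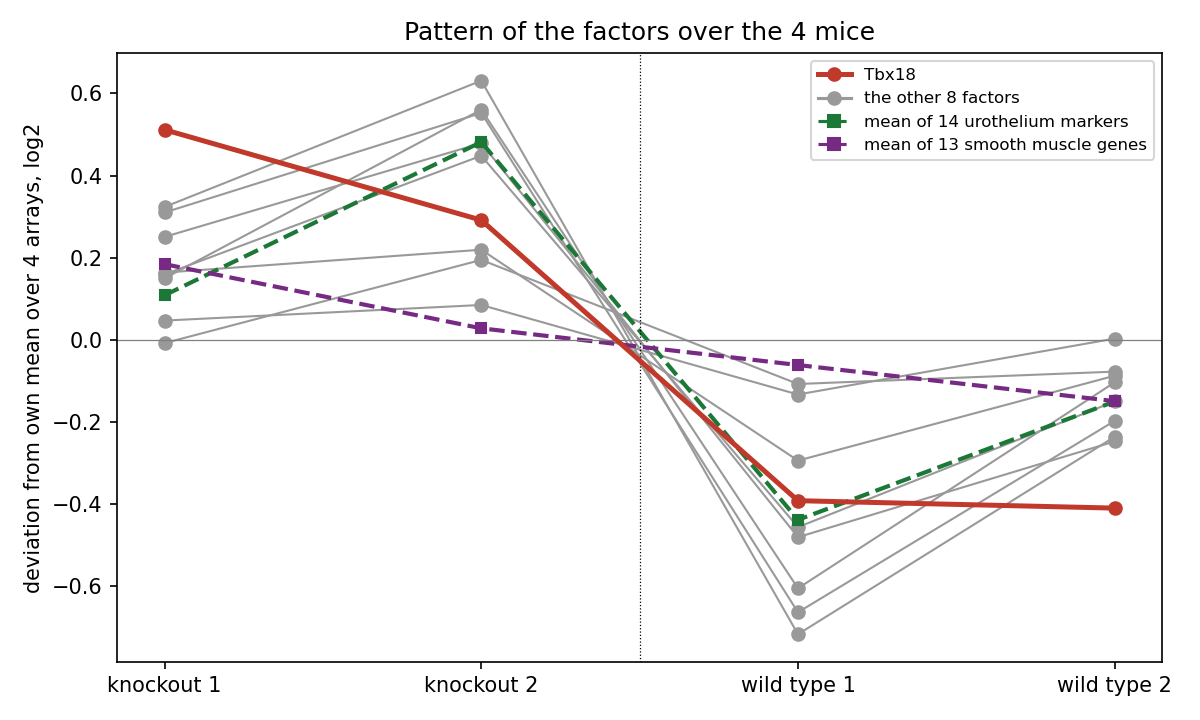
The vertical axis is the deviation of each factor from its own mean over the 4 arrays (log2), for the 2 knockout and 2 wild type mice from left to right, with the means of the urothelium markers and of the smooth muscle genes dashed. Tbx18 (red) is higher in knockout replicate 1 than in replicate 2, like the smooth muscle genes, and nearly level in the wild type mice. The other 8 factors (grey) are higher in replicate 2 of each genotype, like the urothelium markers. Replicate numbers do not pair mice across genotypes.

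Each factor was also expressed relative to the mean of a marker set on the same array, as a description. Relative to the 14 urothelium markers, Foxf1, Tbx3 and Tshz3 stayed higher in both knockout mice, with differences of 0.36, 0.27 and 0.14. Tbx18, Tbx2 and Gata2 overlapped between genotypes on this scale (0.21, 0.12 and 0.02), and Tshz1, Tshz2 and Gata6 were lower in both knockout mice (-0.46, -0.40 and -0.21). Relative to the 13 smooth muscle genes, Foxf1, Tbx3, Tbx18 and Tshz3 were higher in both knockout mice, by 0.74, 0.65, 0.59 and 0.52, and the other 5 overlapped. Relative to the 10 fibroblast markers, the same 4 were higher in both knockout mice by less, 0.37, 0.28, 0.22 and 0.15. On that scale Tshz1, Tshz2 and Gata6 were lower in both knockout mice (-0.45, -0.39 and -0.20), and Tbx2 and Gata2 overlapped. Such a ratio within an array shows unequal change of the factor and the markers, without saying which of them changed. The share of all genes that separate by genotype on these scales was not counted. Whether the factors separate more often than other genes there is therefore not known.

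Genes around the factors were described next, with lists chosen for their known role in the ureter. Earlier results of these data were known when the lists were drawn up. Of 25 tested genes of the upstream signals, 5 rose in knockout and 0 fell, with a median difference of 0.32. Over all genes 1.90% rose and 0.477% fell, with a median of -0.02. Hhip, a hedgehog-binding inhibitor induced by the pathway itself, was at log2 9.38 and 9.84 in knockout ureter, against 7.83 and 8.14 in wild type ureter, and rose 3.08-fold (limma, adjusted p = 0.0208). Bmp4, the ligand that acts on the mesenchyme beside Foxf1, was at 10.69 and 10.97 in knockout ureter, against 9.38 and 9.96 in wild type ureter, and rose by 1.16 (limma, adjusted p = 0.0453). Aldh1a1, an enzyme of retinoic acid synthesis, rose by 0.78, the hedgehog receptor gene Ptch1 by 0.67 and the Wnt receptor gene Fzd1 by 0.69 (limma, adjusted p = 0.0353, 0.0490 and 0.0499). The calls of Bmp4, Aldh1a1, Ptch1 and Fzd1 were lost after another quantile normalization, which left 1 gene of the list higher. Ptch1 and Fzd1 also lost theirs without knockout replicate 2, with arrays weighted by quality and with arrays centred, and they and Bmp4 with all probe sets fitted.

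The genes of this list given next were chosen after their values were seen. Shh, the hedgehog ligand of the epithelium, was at log2 10.56 and 10.85 in knockout ureter and 9.91 and 10.22 in wild type ureter. It did not pass (limma, adjusted p = 0.0759). The hedgehog pathway genes Smo, Gli1, Gli2 and Gli3 had small positive differences, 0.29, 0.26, 0.26 and 0.27. They did not pass either (limma, adjusted p = 0.168, 0.223, 0.228 and 0.252). Aldh1a2, which makes retinoic acid in mesenchyme, was at 9.07 and 9.90 in knockout ureter and 7.70 and 8.45 in wild type ureter. It differed by 1.41 without passing (limma, adjusted p = 0.0651), and the mice of each genotype lay far apart. Axin2, a target of canonical Wnt signals, had a difference of the other sign, -0.46, with 8.05 and 8.01 in knockout and 8.41 and 8.56 in wild type ureter (limma, adjusted p = 0.0812). Of the further retinoic acid genes, Aldh1a3 differed by -0.02, and the receptor genes Rara, Rarb and Rarg by -0.15, -0.01 and 0.55. They did not pass (limma, adjusted p = 0.931, 0.544, 0.981 and 0.0767). The activity of the hedgehog and retinoic acid pathways was not tested.

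Among 23 tested partners and further factors of the ureter mesenchyme, 3 rose and 0 fell, with a median difference of 0.24. Over all genes 1.90% rose and 0.477% fell. Tcf21, a helix-loop-helix factor of kidney and urogenital stroma, was at log2 11.00 and 10.76 in knockout ureter, against 9.14 and 9.37 in wild type ureter, and rose 3.07-fold (limma, adjusted p = 0.0147). Myocd, which encodes myocardin, was at 10.49 and 10.34 in knockout ureter, against 9.41 and 9.41 in wild type ureter, and rose 2.01-fold (limma, adjusted p = 0.0208). As for Tbx18, knockout replicate 1 read higher than knockout replicate 2, and the wild type mice were nearly level. Osr1, a zinc finger factor of the intermediate mesoderm, rose by 0.93 (limma, adjusted p = 0.0489), a call lost with centred arrays, with a further quantile normalization and in the fit of all probe sets. Sox9, named after its values were seen as the partner of TSHZ3, was at 8.29 and 8.28 in knockout and 8.57 and 8.54 in wild type ureter and did not pass (limma, adjusted p = 0.179).

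Of the 13 smooth muscle contractile genes, 0 passed in limma in either direction, and the median difference was 0.25. With p left unadjusted at 0.05, 6 were higher and 0 lower, beside 12.7% of all genes higher. Those of smallest p were Cnn1, which encodes calponin and differed by 0.49 (limma, adjusted p = 0.0767), and Myh11, the smooth muscle myosin heavy chain, which differed by 0.35 (0.126). Acta2 differed by 0.17 (limma, adjusted p = 0.363). Differences were positive for 11 of the genes and negative for Des and Synpo2, -0.30 and -0.23 (limma, adjusted p = 0.229 and 0.379).

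Relatives of the factors did not share 1 direction. Of 12 other T-box genes tested, 7 of them above background, 1 fell and 0 rose, with a median of -0.11. Over all genes 0.477% fell and 1.90% rose. Tbx5, known from heart and forelimb, was at log2 6.46 and 6.59 in knockout ureter, against 7.67 and 7.21 in wild type ureter, and was called lower (fitted difference -0.92; limma, adjusted p = 0.0490). Of its knockout values 1 of 2 lay above background and their mean, 6.52, under it, so the size of the difference is not well measured. The call of Tbx5 was lost with a further quantile normalization and in the fit of all probe sets. Tbx4, named after its values were seen, was at 8.11 and 8.21 in knockout and 7.34 and 7.73 in wild type ureter and did not pass (limma, adjusted p = 0.0750). Of the other 4 GATA genes, Gata5 was at 9.86 and 9.80 in knockout ureter, against 8.28 and 8.74 in wild type ureter, and rose 2.50-fold (limma, adjusted p = 0.0266). Gata3, a urothelial gene named after its values were seen, differed by 0.84 without passing (limma, adjusted p = 0.0566), and the remaining 2 GATA genes had negative differences that did not pass.

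**Figure D4:**
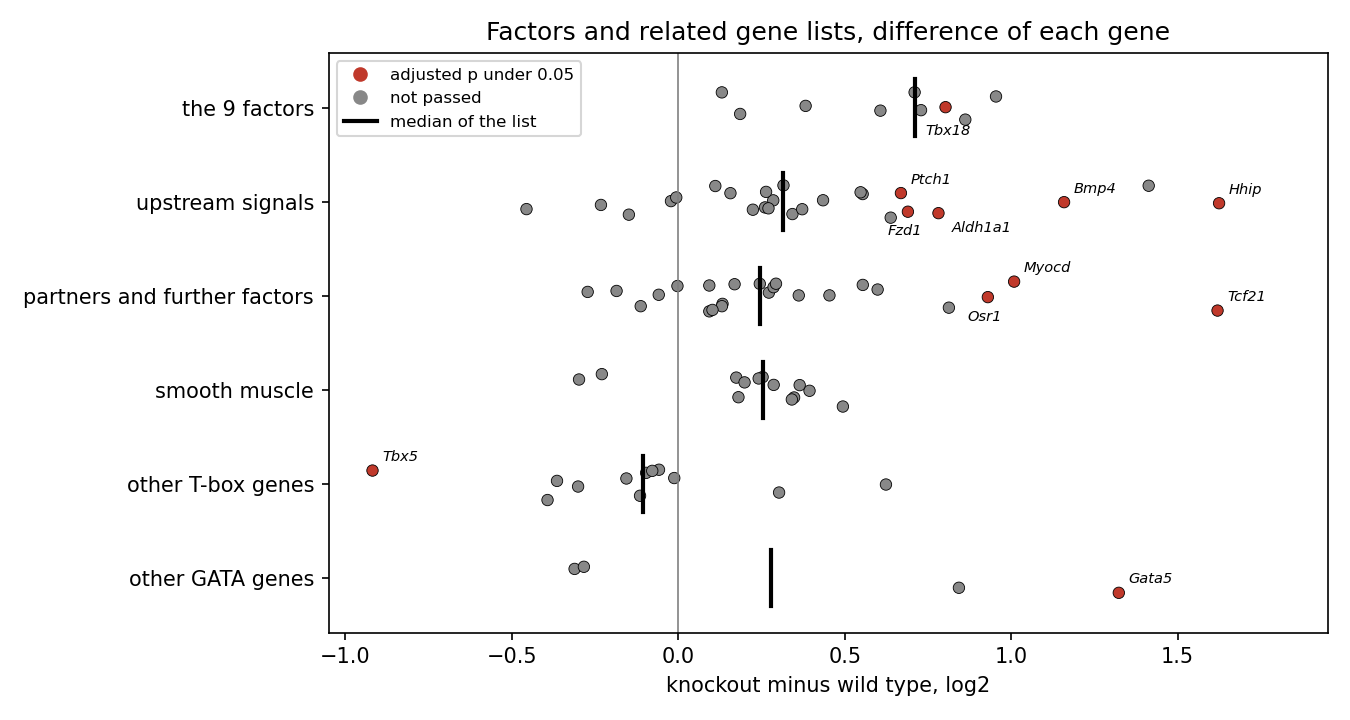
Each point is a gene, placed by its knockout minus wild type difference (log2), in rows for the 9 factors, the upstream signals, partners and further factors, smooth muscle genes and relatives, with vertical spread only to separate points. Red points passed an adjusted p of 0.05 and are named, black bars are list medians, and the median of the 9 factors, 0.71, lies right of the medians of the other rows.

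Across the 4 arrays, the genes above background whose deviations from their own mean lay closest to those of Tbx18 were Hectd2, Dpp6 and Zcchc7, at Euclidean distances of 0.07 each on the log2 scale. Their differences were 0.81, 0.75 and 0.78 (limma, adjusted p = 0.0403, 0.0403 and 0.0353). The call of Dpp6 was lost when the probe sets of a gene were averaged (limma, adjusted p = 0.498), with centred arrays and after another quantile normalization, and the last of these also ended the calls of Hectd2 and Zcchc7. With 4 arrays, closeness rests mainly on the difference between genotypes and describes these arrays.

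The calls of the factors moved with the processing and with single mice. Other fits included the replicate number as a block, although it does not pair mice, and fits that left out 1 mouse. Tbx2 and Gata2 were called only in fits of these kinds. Without knockout replicate 1, the mouse with the highest kidney markers, the differences ran from 0.15 for Tshz1 to 1.11 for Foxf1. That of Tbx18 was 0.69. Without knockout replicate 2, the factors differed by between 0.08 for Tshz2 and 0.91 for Tbx18. Without either wild type mouse 0 passed, and there 0 of all genes did, the deleted Mir145a included. Tbx18 kept its call in 10 of 13 other fits, Tshz3 was called in 6, Foxf1 in 5, Tbx3 in 4, and Tbx2 and Gata2 in 2 each. Tshz1, Tshz2 and Gata6 were called in 0 of 13, and the sign of all 9 differences was positive in each of these fits.

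**Figure D5:**
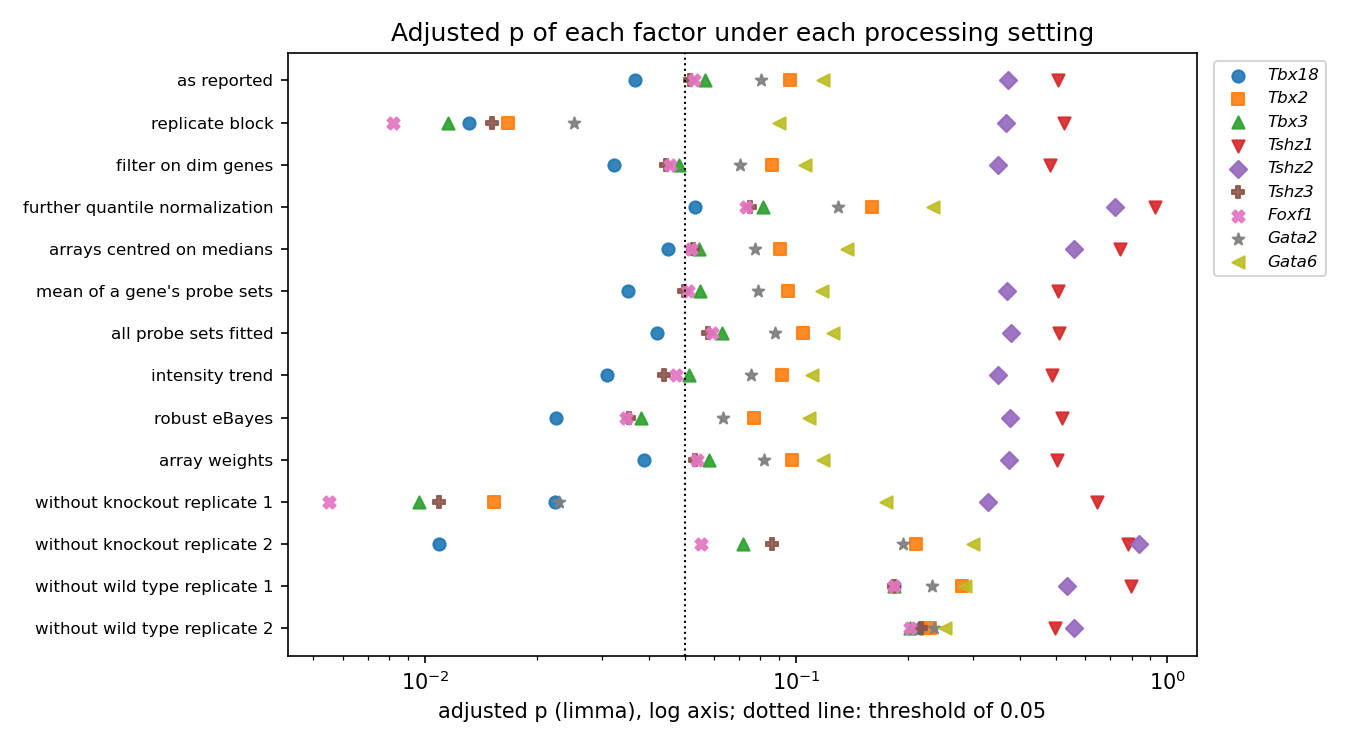
The adjusted p of each factor from limma (log axis) is drawn for the fit reported here and for 13 other fits, 1 per line, with a dotted line at the threshold of 0.05. Tbx18 lies left of the line in 10 of the 13, Foxf1, Tbx3 and Tshz3 lie close to it in most, and Tshz1 and Tshz2 lie far to its right in all.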

How the data were processed

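RNA from the ureter of 4 mice, 500 ng per mouse, was hybridised to whole-transcript arrays, per the labels' protocols. The authors deposited log2 expression, for which the submitters' processing notes list RMA, R 2.15.0 and limma 3.12.1. A genome build for the probe sets was not given in these sources. Of 23309 probe sets, 20728 have 1 gene symbol, 1174 several and 1407 none. The brightest probe set of each gene over the 4 arrays was kept, which gave 19296 genes. Background was log2 6.58, under which 95% of 1024 olfactory receptor genes had their mean. Median array values were 7.81 to 7.89. For arrays no counting depth exists, and 2 mice per genotype limit the precision.

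Knockout was compared with wild type in limma 3.58.1 under R 4.3.3, by lmFit and eBayes without covariates, and p was adjusted over all genes by Benjamini-Hochberg, with 0.05 as the threshold. The test was checked on simulated data. The factors and gene lists were chosen with earlier results of these data known. Genes named by rule are the 9 factors, the deleted microRNA genes and the 3 genes closest to a factor that passed. From each related list they are up to 5 genes past the threshold or else the 2 of smallest p. Further genes, among them Shh, Aldh1a2, Axin2, Sox9, Tbx4 and Gata3, were named outside this rule after their values were seen. Alternatives tried were the replicate number as a block, median centring, another quantile normalization, leaving out dim genes, other uses of probe sets, other variance models, array weights, other thresholds and leaving out each mouse. RefSeq promoter windows were searched with Python 3.11.15.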

Additional observations from a re-analysis of the deposited data

How the results depend on the processing

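The count of factors called higher was 1 as reported. It was 1 with centred arrays, array weights and all probe sets fitted, 2 when probe sets were averaged per gene, 3 with an intensity trend, 4 with a filter on dim genes and 4 with robust eBayes, 6 at a threshold of 0.1, 0 at 0.01 and 0 with a further quantile normalization. The cause of these shifts was not tested. Over all genes, 367 were higher and 92 lower as reported. With a further quantile normalization 155 were higher and 49 lower, with robust eBayes 655 and 247, at a threshold of 0.1 1317 and 982, and at 0.01 1 and 1. With the filter on dim genes 535 were higher and 147 lower, and with all probe sets fitted 256 and 57. Averaged probe sets gave 391 higher and 96 lower, an intensity trend 424 and 86, and array weights 308 and 67. Centred arrays gave 245 higher and 148 lower. Leaving out each mouse in turn gave 0 to 6 factors higher, and over all genes 0 to 1115 higher and 0 to 629 lower; the lone mouse of a genotype is there assumed to vary like the others. The counts without either wild type mouse were 0. With the replicate number as a block, 6 factors were higher, and 1164 genes were higher and 758 lower. The labels give only a shared number, and the correlation over genes of the replicate differences in knockout with those in wild type was -0.01, so the mice were not treated as pairs. The count of factors lower was 0 in every fit.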
